A study of Caenorhabditis elegans with 2 samples.

Results

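The single-direction promoter peaks of MXL-1 were 1174 ChIP-seq peaks that lay in the promoter windows of protein-coding genes read from one strand, away from small RNA genes. They were taken from the 14193 nuclear peaks of the list called on both replicates pooled, of which the 4400 with the highest deposited signal were considered. Of those 4400, 606 had a summit within 250 bp of a tRNA, snoRNA, snRNA or rRNA gene, 334 had a summit in a 3'UTR, and 2064 lay outside every promoter window (from −1000 to +200 bp around each annotated start of a protein-coding transcript). Another 222 lay in promoter windows of genes on both strands and are called divergent promoter peaks here. The remaining 1174 (26.7% of the 4400) are the members. The members were chosen by their peak signal and summit position, so both are described and not tested. A further 2551 pooled peaks met the same position rule below the signal limit and are called weaker single-direction peaks.

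The worms were whole Caenorhabditis elegans hermaphrodites at the young adult stage, 67 hours after their synchronisation as starved L1 larvae, in 2 biological replicates that form 1 group. Both replicates came from strain OP537, genotype unc-119(tm4063) III; wgIs537, in which the insertion wgIs537 expresses MXL-1 fused at its C terminus to GFP-FLAG. Chromatin was immunoprecipitated with an antibody against GFP, so tagged protein was measured, and whole animals mix all tissues. The antibody entry in the labels of both samples reads mxl-1. What drives the transgene's expression is not given in the sources used here. There was no second genotype or treatment. Per the deposited descriptions a control alignment entered the peak lists, and no list of a control is used here. The depth of each library is unknown.

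MXL-1 is a worm relative of mammalian Max, a basic helix-loop-helix leucine zipper protein. It pairs with MDL-1, the worm relative of the Mad repressors, while MXL-2 pairs with MML-1, and such dimers are known to bind the E-box, above all the palindrome CACGTG. In mammals the Max network governs growth, ribosome production and metabolism, and in C. elegans its members are known for effects on lifespan.

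The sites below show the E-box in the 12 strongest members that carry one within 100 bp of the summit, with the site at mdl-1, the gene of MXL-1's partner. Each run is 30 bases long, from RefSeq on WBcel235 (ce11), written 5′ to 3′ on the strand of the gene, and the capitals mark CACGTG.
bet-2, chrX:10568590-10568619, plus strand: agtgtgagcgtcCACGTGagtgtgtgagtg
F54D5.7, chrII:11547424-11547453, plus strand: cttgtccttggcCACGTGggggtaaaagat
T28B11.1, chrV:10715940-10715969, minus strand: cttccctccggtCACGTGcgcgcgagacga
swsn-3, chrIII:2768822-2768851, minus strand: tcttgcaaaaacCACGTGccaggcttgcca
sql-1, chrIII:12499429-12499458, plus strand: tgcgcgtcaattCACGTGttttcacacacg
gsy-1, chrII:12878761-12878790, minus strand: aatagtgataagCACGTGattgaaccgttg
F26F2.7, chrV:20580753-20580782, plus strand: atgtgcattgaaCACGTGattttattggtt
ret-1, chrV:14830597-14830626, minus strand: ttctccttgaaaCACGTGtgagatcgatac
zyg-11, chrII:8016680-8016709, plus strand: atgggaaaaaacCACGTGtagtgttatcag
fum-1, chrIII:7465408-7465437, plus strand: tatttatgtaacCACGTGgtttcttcaact
K02A6.3, chrX:8232092-8232121, minus strand: attgcagaaagtCACGTGgaaacagagtcc
C14B1.8, chrIII:3720438-3720467, minus strand: atttccaggcgtCACGTGaacttgcaagca
mdl-1, chrX:6742214-6742243, plus strand: tcatgcgaggcgCACGTGcatacacacaca
The base before the palindrome was C at bet-2, F54D5.7, swsn-3, zyg-11 and fum-1, and T at T28B11.1, sql-1, K02A6.3 and C14B1.8. It was G at gsy-1 and mdl-1, and A at F26F2.7 and ret-1. Of all 84 members with CACGTG, 51 had a site centred within 50 bp of the summit.

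Values of these sites follow for the list of both replicates pooled and for each replicate's own list. F54D5.7, named by RefSeq a putative glutaryl-CoA dehydrogenase, had a signal of 94.1 in the pooled list, 59.3 in replicate 1 and 32.7 in replicate 2. The F-box gene T28B11.1 had 88.6, 36.1 and 53.9 in the same lists. The HMG-box gene swsn-3 had 80.5, 40.4 and 38.3, with the site 2.5 bp from the summit. Both replicates held a summit at each of these 3 genes.

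At sql-1, a GRIP-domain protein, the pooled signal was 78.1, with 43.1 in replicate 1 and 31.7 in replicate 2. At gsy-1, glycogen synthase, it was 73.0, with 33.2 in replicate 1 and no summit within 100 bp in replicate 2. At ret-1, a reticulon of the endoplasmic reticulum, it was 67.0, with 31.7 in replicate 1 and 30.2 in replicate 2. Of the 12, 9 had a summit in both replicates and 7 were in the authors' thresholded list. The peaks of gsy-1, fum-1 and K02A6.3 lacked a summit within 100 bp in replicate 2. Another fum-1 member, at +35 bp and without an E-box, was matched in both replicates.

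The signal of the members ran from 36.03 to 194 with a median of 42.3 (quartiles 38.5 and 50.3), in the authors' unit, which the sources used here do not state. Most members were weak entries of a list that holds peaks and background. Only 70 of the 1174 (5.96%) were in the authors' thresholded list, and the authors' −log10 q value had a median of 0.494 and was above 1 at 297 members. At the limit, gex-3 and str-178 were inside at 36.03 each, and tth-1 was outside at 36.01.

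A summit of replicate 1 and one of replicate 2 lay within 100 bp of 692 members (58.9%, exact 95% interval 56.1 to 61.8), 207 had one in replicate 1 only, 242 in replicate 2 only, and 33 in neither. The share with both was 67.1% (60.5 to 73.3) at the 222 divergent promoter peaks and 16.1% (14.7 to 17.6) at the 2551 weaker ones, which were ranked on the same pooled signal. Among the 692 members, the replicate 1 signal ran from 12.7 to 105 with a median of 21.8, and the replicate 2 signal ran from 12.8 to 85.2 with a median of 22.7. The order of the members by signal was only loosely shared between replicates, with a Spearman's rho of 0.15 across the 692 regions, which share a pooled call and a minimum signal. When a match had to be among the 4400 strongest peaks of each replicate, 231 members (19.7%) had both.

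The 20 strongest members stood at 19 genes, and 15 of the 20 summits lay outside protein-coding genes. The highest was dhs-8, which RefSeq names as a short-chain dehydrogenase family oxidoreductase, with a signal of 194 in the pooled list, 105 in replicate 1 and 80.4 in replicate 2, at −988 bp from the transcript start. K12H4.5, an uncharacterised protein, had 161, 74.4 and 84.5 in the same lists. The promoter of rpl-3, a large ribosomal subunit protein, had 159 in the pooled list, 74.1 in replicate 1 and 83.8 in replicate 2, with the summit at −325 bp. These 3 were high in both replicates.

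The peak of nduf-9, a subunit of respiratory complex I, had a pooled signal of 142, with 58.0 in replicate 1 and 85.2 in replicate 2. The peak of rpi-2, which RefSeq names Protein XRP2, had 126, 56.4 and 70.1, at −76 bp. At bet-2, a bromodomain protein, the values were 124, 58.5 and 69.5, and it was the strongest member with an E-box. The promoter of vps-37, a subunit of the ESCRT-I complex that sorts membrane cargo to the lysosome, had 117 in the pooled list, 66.5 in replicate 1 and 51.7 in replicate 2. Of the 17 peaks among the 20 that had a summit in both replicates, 12 had the higher value in replicate 2 and 5 in replicate 1, on 2 lists whose scales are not stated. The widest gap was at nspc-17, a nematode-specific peptide gene, with 74.8 in replicate 1 and 28.3 in replicate 2.

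Further down the 20 stood wwp-1, an E3 ubiquitin ligase, with a pooled signal of 112, and epn-1, an epsin of clathrin-mediated endocytosis, with 99.9 and no summit within 100 bp in replicate 2. The ribosomal genes rla-1 and rpl-35 had 97.7 and 95.1, and rpl-35 had no match in replicate 1. The gene sms-3, named by RefSeq as a putative phosphatidylcholine:ceramide cholinephosphotransferase, an enzyme that makes sphingomyelin, held 2 of the 20, at 108 and 92.1.

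**Figure D1:**
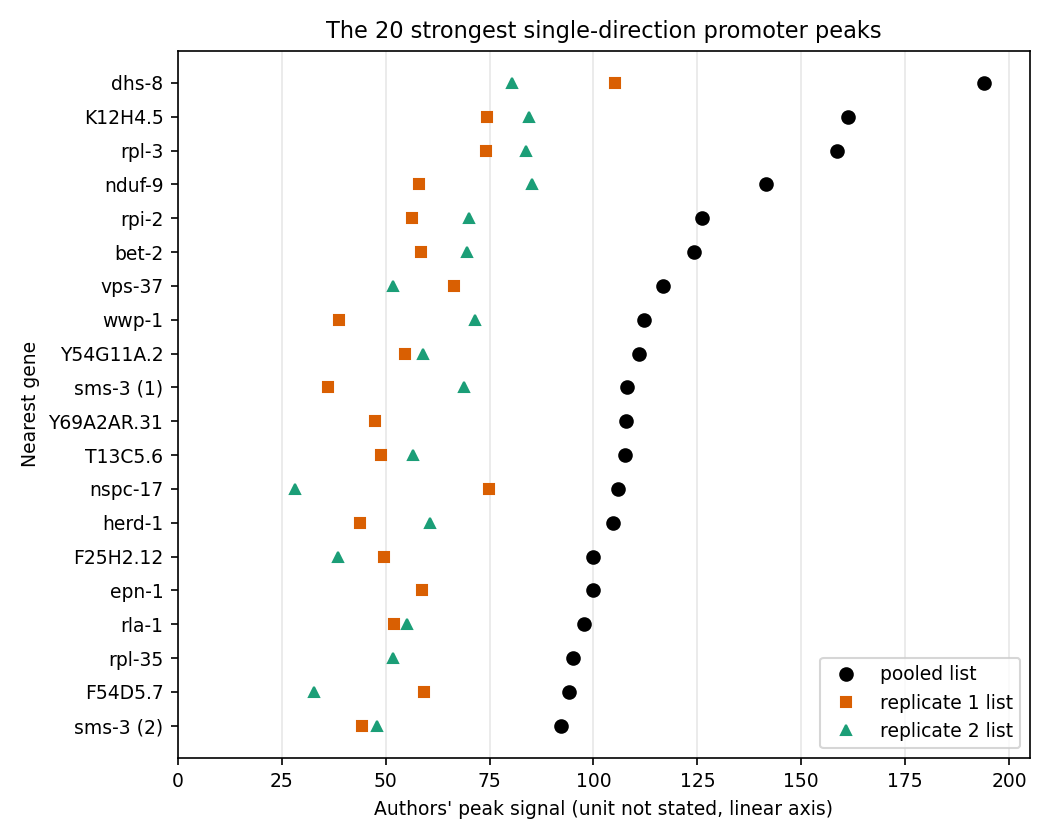
The authors' peak signal on a linear axis (x) for the 20 strongest members, named by nearest gene (y), in the pooled list (circles), replicate 1 (squares) and replicate 2 (triangles). The pooled signal runs from 194 at dhs-8 to 92.1 at the second sms-3 peak, and Y69A2AR.31, epn-1 and rpl-35 lack a point in 1 replicate because no summit lay within 100 bp.

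Several genes held more than 1 member. Of the 1111 genes with a member summit in a promoter window, 85 had 2 and 7 had 3, namely sms-3, M01H9.3, fkh-7, cyc-2.1, unk-1, hrpu-1 and tent-5. At sms-3 the weakest of the 3 summits had a signal of 39.0, and at cyc-2.1, one of the worm's cytochrome c genes, the 3 summits had 57.4, 55.5 and 44.4. The 3 summits of hrpu-1 had 55.1, 42.5 and 38.3. Conversely, 1139 members lay in the window of 1 gene, 34 in those of 2 and 1 in those of 3. Member peaks can overlap, so these counts need not be of separate sites. The 3 peaks of cyc-2.1 formed an overlapping run, and the hrpu-1 peaks with 55.1 and 42.5 overlapped. Keeping only the strongest of summits within 500 bp left 1110 members at 1096 genes.

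Member summits lay nearer to transcript starts than the bases open to them. Their median position was −235 bp (quartiles −572 and −23.5), against −286 bp for the weaker single-direction peaks and −371 bp for all 22682167 bases that met the position rule, called eligible bases here. The 200 bp before the start held 297 members (25.3%, 22.8 to 27.9), against 20.1% of weaker peaks (18.6 to 21.7) and 17.6% of eligible bases. In the 200 bp at the upstream end of the window, 11.8% of members (10.0 to 13.8) compared with 12.9% of weaker peaks and 15.8% of eligible bases. With only the most upstream start of each gene used, and no limit on the distance, the median was −129 bp. Summits near a gene's other starts can then lie far downstream, so this value does not mean that summits were nearer to starts.

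**Figure D2:**
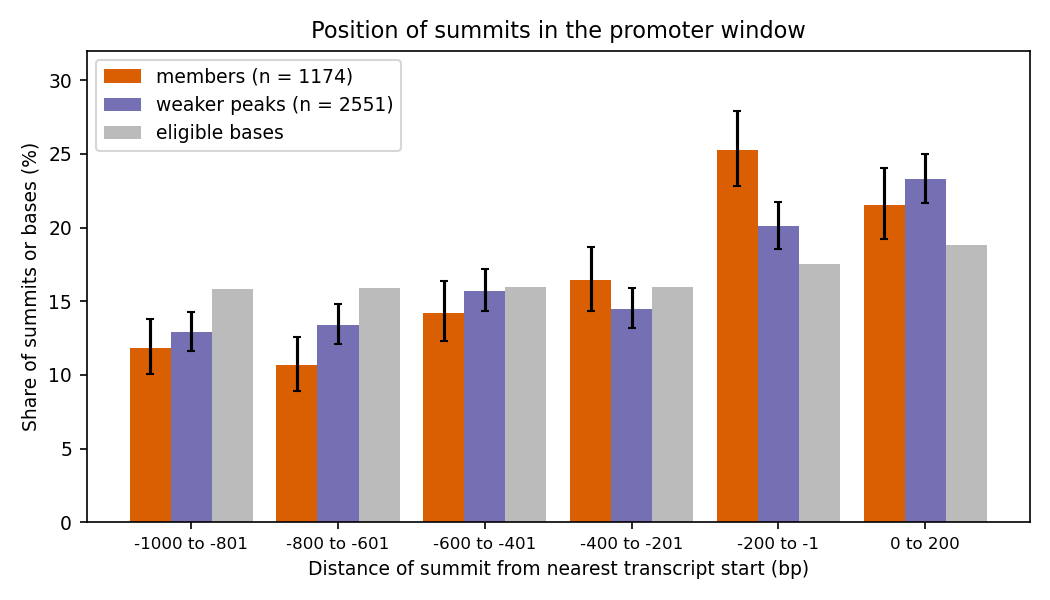
Share of summits or bases (y, percent) by distance from the nearest transcript start (x, bp) for the 1174 members, the 2551 weaker single-direction peaks and all eligible bases, with exact 95% binomial intervals on the first 2. Members are at 25.3% in the 200 bp before the start, above the 20.1% of weaker peaks and the 17.6% of eligible bases.

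By annotation, 571 members (48.6%, 45.7 to 51.5) lay outside protein-coding genes, 260 (22.1%) in introns, 64 (5.45%) in 5'UTRs and 279 (23.8%) in coding exons. Eligible bases were split at 48.2%, 25.2%, 4.14% and 22.4%. Of the divergent promoter peaks, 69.4% (62.9 to 75.4) lay outside genes. Of the members in coding exons, 177 were in the gene whose window held them and 102 in another gene.

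Across chromosomes, V held 214 members (18.2%, 16.1 to 20.6) against 24.1% of eligible bases, and III held 187 (15.9%, 13.9 to 18.1) against 12.3%. The X chromosome held 181 members (15.4%, 13.4 to 17.6), close to its 15.9% of eligible bases, while 11 of 222 divergent promoter peaks (4.95%) were on X. Eligible bases lie in windows of a single strand, so they give no baseline for the divergent peaks. Chromosomes I, II and IV held 184, 184 and 224 members. No test was made of these shares.

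The gene upstream of a member gene lay on the same strand in 736 of 1110 cases (66.3%, 63.4 to 69.1), against 53.7% of all protein-coding genes, which follows in part from a rule that drops windows on both strands. It was 64.7% at genes with weaker single-direction summits alone. The gap to that neighbour had a median of 672 bp at member genes, 1153 bp at genes with weaker summits alone and 941 bp over all genes. Some C. elegans genes are transcribed in operons, and which genes are in one was not examined.

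The E-box CACGTG was more frequent at member summits than beside them. It stood within 100 bp of 84 of 1174 summits (7.16%, 5.75 to 8.78), and windows of that size around eligible bases held it in 3.51%. Over the 1173 members with a complete window centred 1000 bp upstream, 79 had it at the summit only and 39 in the upstream window only, or 7.16% against 3.75% (exact McNemar test, two-sided p = 0.000293, adjusted over 16 short sequences p = 0.00156). On the peaks of replicate 2 alone the difference was 1.22 percentage points and the call was lost (exact McNemar p = 0.193), while on replicate 1 alone it was 3.04 points. With the 2200 strongest peaks and with the shorter promoter window it passed unadjusted and not after adjustment over the 16 sequences (exact McNemar test, adjusted p = 0.0614 and 0.0550). Only a small part of the members carried the palindrome, and 18 of the 20 strongest had none within 100 bp.

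Members were 2.69 percentage points above the weaker single-direction peaks, of which 114 of 2551 (4.47%, 3.70 to 5.34) had CACGTG (Fisher's exact test, two-sided p = 0.000928, adjusted over 16 sequences p = 0.00545). By the same exact test, that call was lost with the 2200 strongest peaks (adjusted p = 0.121), on replicate 2 alone (0.420), and with the shorter and the longer promoter window (0.291 and 0.0567), with the members higher in each. Members were 2.65 points above the divergent promoter peaks, of which 10 of 222 (4.50%, 2.18 to 8.13) had it, and this difference did not pass (Fisher's exact test, p = 0.188, adjusted p = 0.600). The share did not climb with signal inside the members, at 7 of 70 (10.0%, 4.12 to 19.5) in the ranks of the thresholded list, 6.06% of 462 from there to rank 2200, and 7.63% of 642 from there to rank 4400.

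GC content moved with these comparisons. The windows of 100 bp either side of the summit had a mean GC content of 40.8% ± 7.58 (SD, n = 1174) at members, 36.3% ± 7.55 (n = 1173) upstream of them, 38.6% ± 7.25 (n = 2551) at weaker peaks and 40.7% ± 7.31 (n = 222) at divergent ones. When members and weaker peaks were split by the same limits of GC content, the E-box share was 5.79% of 328 members against 2.42% of 990 weaker peaks in the GC-poorest of 3 equal bins, 7.41% of 378 against 4.92% of 792 in the middle bin, and 7.91% of 468 against 6.63% of 769 in the GC-richest. The members were higher in each bin, with exact intervals that overlapped, 3.52 to 8.90 against 1.56 to 3.59 in the GC-poorest. The split was chosen after the shares were seen.

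**Figure D3:**
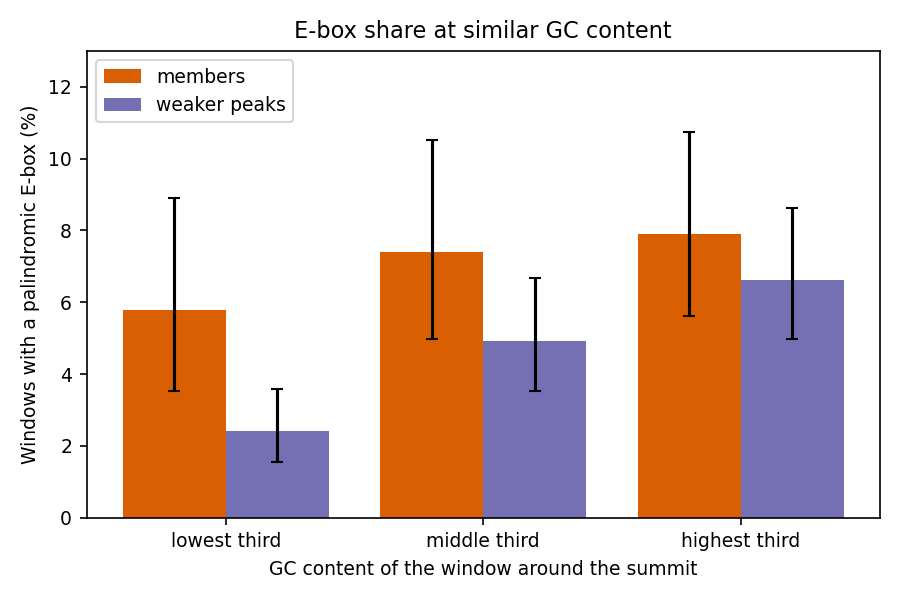
Share of windows around the summit with a palindromic E-box (y, percent) in members and in weaker single-direction peaks, within 3 equal bins of GC content over both sets together (x), with exact 95% binomial intervals. Members are at 5.79%, 7.41% and 7.91%, against 2.42%, 4.92% and 6.63% at weaker peaks.

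Sites were densest near the summit. Members had 0.511 CACGTG sites per kb at 26 to 50 bp from the summit and 0.375 at 0 to 25 bp, and 0.209 in the 2 bins beyond 300 bp, with 0.188 per kb over all eligible bases. Weaker peaks had 0.274 per kb at 26 to 50 bp and 0.212 in the farthest bin, which ends at 500 bp. Seen from the sequence, 89 of the 4264 CACGTG sites on eligible bases (2.09%, 1.68 to 2.56) lay within 100 bp of a member, against 0.975% of the eligible bases themselves. Of the sites of CAGCTG, another palindromic E-box, 1.57% (1.23 to 1.97) lay that near. For CACATG it was 1.30% (1.06 to 1.57), with an interval above the share of bases. It was 1.10% for CAGATG, 1.08% for CAAGTG, 0.997% for CAACTG, 0.984% for CACCTG and 0.876% for CAAATG. For CATATG it was 0.813% (0.573 to 1.12), below the share of bases, and for CAATTG 0.874% (0.707 to 1.07).

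**Figure D4:**
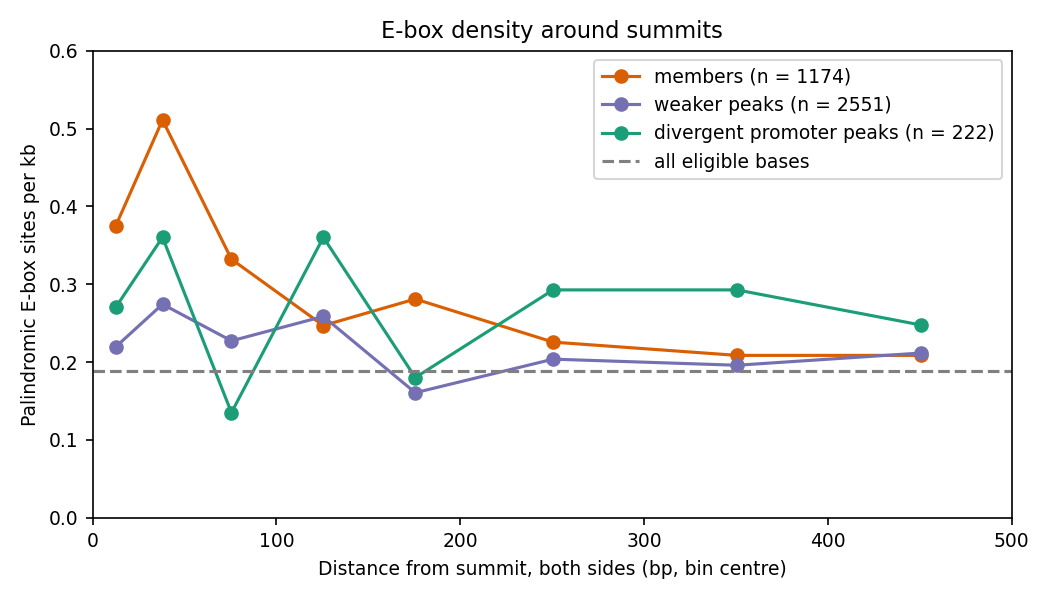
Palindromic E-box sites per kb (y) by distance from the summit on both sides (x, bp) at the 1174 members, 2551 weaker single-direction peaks and 222 divergent promoter peaks, with the density over all eligible bases as a dashed line at 0.188. The member curve reaches 0.511 at 26 to 50 bp, and the divergent curve rests on 3 to 13 sites in each bin.

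The base beside the palindrome was compared between the 91 sites centred within 100 bp of a member, read on both strands, and 3492 sites on eligible bases more than 500 bp from any pooled summit. T stood before CACGTG in 46 of 182 readings at members (25.3%) and in 1762 of 6984 elsewhere (25.2%, Fisher's exact test, p = 1). Over the 4 bases, G was more frequent at members (38 of 182, 20.9%, against 12.8%, Fisher's exact test, adjusted p = 0.00999) and A less so (16.5% against 24.7%, adjusted p = 0.0222). The 2 readings of a site share that site, so these p-values overstate the number of independent observations.

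The palindromic E-box was not the short sequence with the largest difference. Of the 16 sequences, GAGAGA differed most in percentage points from upstream windows and from weaker peaks. CGCGCA had the lowest p in both comparisons. The CG-rich CGCGCA, which is no E-box, was in 105 of 1174 member windows (8.94%) against 3.58% upstream (exact McNemar test, adjusted over 16 sequences p = 6.87e-07) and 5.33% at weaker peaks (Fisher's exact test, adjusted p = 0.000872), with 3.09% around eligible bases. GAGAGA was in 19.1% of member windows against 13.3% upstream (exact McNemar test, adjusted p = 0.00118) and 15.1% at weaker peaks (Fisher's exact test, adjusted p = 0.0106). The E-box CAGCTG, the form preferred by several other helix-loop-helix factors, was in 6.64% of members against 4.08% of weaker peaks (Fisher's exact test, adjusted p = 0.00545) and 4.94% upstream (exact McNemar test, adjusted p = 0.188). Divergent promoter peaks had higher shares than members, 12.2% for CGCGCA, 20.3% for GAGAGA and 9.46% for CAGCTG. None of these differences passed (Fisher's exact test, adjusted p = 0.600, 0.758 and 0.600). The share of CGCGCA was highest at the strongest members, at 22.9% of 70 (13.7 to 34.4) in the ranks of the thresholded list, 11.5% of 462 from there to rank 2200, and 5.61% of 642 from there to rank 4400.

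Over all 6-mers, counted once for both strands, 224 (10.8%) were more frequent at member summits than in the upstream window and 92 (4.42%) were less so (exact McNemar tests, Benjamini-Hochberg adjusted p under 0.05). The leading ones were rich in CG. GCGCGC was in 5.88% of members and 1.11% of upstream windows (exact McNemar test, adjusted p = 9.31e-08), and CCGCGC in 88 members against 23 upstream windows. GCACAC was in 11.7% of members against 4.35% of upstream windows, with the same adjusted p. The dinucleotide CG was in 55.8% of the 224, against 29.0% of all 6-mers, and CACGTG was 125th by p. Of the 92 that were less frequent, 89 had at most 2 G or C bases.

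Against weaker single-direction peaks, 17 of all 6-mers (0.817%) were more frequent and 14 (0.673%) less frequent at members (Fisher's exact tests, adjusted), and 16 of the 17 and 13 of the 14 also passed in the same direction against the upstream window. By that exact test, ACGCGC led the higher ones with 8.18% of members against 4.27% of weaker peaks (adjusted p = 0.00298), and AAATTT led the lower ones with 31.0% against 39.9% (adjusted p = 0.000362). With 50 bp windows the 17 and 14 became 2 and 0. CACGTG was not among the 17, with an adjusted p of 0.0543 over all 6-mers by the same exact test, and neither were the E-box CAGCTG (0.0543) and GAGAGA (0.0778), although these 3 passed over the 16 sequences. CGCGCA was among them (0.0162). In the bins of GC content used for the E-box, CGCGCA was in 4.57% of members (2.58 to 7.43) against 2.83% of weaker peaks (1.89 to 4.06) in the GC-poorest bin. It was in 8.99% (6.31 to 12.3) against 4.42% (3.10 to 6.09) in the middle bin, and 11.97% (9.17 to 15.3) against 9.49% (7.51 to 11.8) in the GC-richest. The intervals overlapped in the GC-poorest and GC-richest bins. The other 6-mers were not split by GC content.

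Against divergent promoter peaks, 0 of all 6-mers (0%) were more frequent at members by Fisher's exact test with adjustment, with 77 at an unadjusted p under 0.05, and 6 (0.288%) were less frequent. GAGCGC was in 6.81% of members against 17.1% of divergent peaks (Fisher's exact test, adjusted p = 0.00648), CGCTCC in 5.28% against 14.4% (0.00648) and GCGCAC in 7.33% against 16.2% (0.0389). The 6 also included 2 with at most 2 G or C bases, ATTTAA in 22.1% of members against 35.1% of divergent peaks (adjusted p = 0.0375 by that exact test) and AAATCG in 21.5% against 33.8% (0.0458). Of the 6, 5 contained CG. The mean GC content of the 2 sets was 40.8% and 40.7%, while the number of CG dinucleotides per window averaged 9.01 ± 4.24 (SD, n = 1174) at members and 10.6 ± 4.44 (n = 222) at divergent peaks.

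The following CG-rich runs are from strong members that carry them near the summit, and were chosen after their values were seen. Capitals mark every match, on either strand and with overlaps, to 4 of the leading sequences. These were ACGCGC from the comparison with weaker peaks, together with GCGCGC at the top of the one with upstream windows, then CGCGCA as tested above, and finally CGCGCG, all within 100 bp of the summit. All 4 were more frequent at members in both comparisons. Each is 30 bases from RefSeq on WBcel235 (ce11), 5′ to 3′ on the gene's strand.
rpi-2, chrIV:1711195-1711224, plus strand: gtttccatagcaACGCGCGCtctcgccgag
Y54G11A.2, chrII:14251466-14251495, plus strand: tgaaTGCGCGCGTGCGCGaatgatggcgtg
epn-1, chrX:14818843-14818872, minus strand: aaaacgcatgcgACGCGCGCAaaaagacca
F39G3.3, chrV:4731586-4731615, plus strand: gacattgcaaaaACGCGCGCGCGCAttgca
lgg-1, chrII:6347928-6347957, minus strand: atgaccgatgTGCGCGCAcactccctctct
mep-1, chrIV:11524503-11524532, plus strand: aatctggcttgcCGCGCGCGCGCAttttat
C18B12.4, chrX:15040955-15040984, minus strand: aatACGCGCGCGCGCGCGagggcagccaaa
The windows of epn-1, C18B12.4 and F39G3.3 held 11, 10 and 9 overlapping matches, that of mep-1, a zinc finger protein that keeps germline genes silent in somatic cells, held 7, and those of Y54G11A.2, lgg-1 and rpi-2 held 5, 4 and 3. Their pooled signals ran from 126 at rpi-2 to 62.2 at C18B12.4.

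Member promoters covered 1111 of 19973 protein-coding genes (5.56%), which is the share against which each gene list is set. The lists follow gene symbols, and no test was made of them. Of 33 lists with 20 genes or more, 23 were above 5.56% and 10 below. The exact 95% interval lay wholly above it in 3 lists and wholly below it in 4. Over all 1111 genes the median signal of the strongest member was 42.5. Signals given for the lists below are from the pooled list unless a replicate is named. Several of those peaks had no match in a replicate, such as the peaks of hsp-4, nhr-1 and act-3.

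The lists wholly above were those of autophagy, translation factors and cytosolic ribosomal proteins. Of 31 autophagy genes, 6 had a member (19.4%, 7.45 to 37.5), with a median signal of 57.4. These included lgg-1 and lgg-2, the worm's homologues of Atg8 that coat autophagosomes, with 72.0 at −165 bp and 75.9 at −312 bp. At lgg-2 the signal was 27.9 in replicate 1 and 50.2 in replicate 2, and at lgg-1 it was 31.8 and 49.4. The others were epg-4, with 65.9, atg-7, the enzyme that activates Atg8, with 48.8, epg-9 with 46.6, and sqst-1, the cargo adaptor p62, with 36.4, just above the limit. The peaks given for atg-7 and epg-9 had no match in replicate 2.

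Of 81 cytosolic ribosomal protein genes, 11 had a member (13.6%, 6.98 to 23.0), and 68 of the 81 had any eligible base. Beside rpl-3, rla-1 and rpl-35, the signals were lower, with rps-16 next at 50.97 and rpl-13 last at 37.8. The rpl-13 peak had no match in either replicate. The strongest members of rpl-35, rps-28 and rpl-27 had none in replicate 1, and those of rpl-12 and rps-17 none in replicate 2. Among 42 translation factor genes 7 had a member (16.7%, 6.97 to 31.4). They included eif-3.I with 51.4, eef-1A.2, an elongation factor 1A, with 49.1, eef-1B.2 with 46.8, and ife-1, a cap-binding protein of the germline, with 40.5 and an E-box. The eef-1A.2 peak had no match in replicate 2 and the ife-1 peak none in replicate 1. None of the 12 member peaks at the 11 ribosomal protein genes had CACGTG within 100 bp. One of the 11, rpl-24.2, entered the list by its symbol and is named by RefSeq as a putative ribosome biogenesis protein, RLP24. Aminoacyl-tRNA synthetases had 3 of 31 (9.68%), led by vars-1 with 58.1, and nucleolus and ribosome biogenesis genes had 3 of 26 (11.5%), led by pro-1 with 60.6.

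Lists of protein quality control and membrane traffic were above 5.56% with intervals that reached it. Chaperones had 8 of 68 (11.8%), among them hsp-1, the constitutive cytosolic Hsp70, with 66.6, and hsp-3 and hsp-4, the BiP homologues of the endoplasmic reticulum, with 59.1 and 57.5. The proteasome had 4 of 33 (12.1%), led by the core subunit pas-1 with 48.6. Trafficking genes had 10 of 93 (10.8%), with vps-37 first, then sec-61.G, a subunit of the translocon, with 67.3, and snx-1, a sorting nexin, with 57.4. Lysosome and vacuolar ATPase genes had 5 of 59 (8.47%), led by vha-2 with 60.2.

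In metabolism, glycolysis and central carbon genes had 5 of 38 (13.2%). The fumarase gene fum-1 had a summit with an E-box at −165 bp, with 65.8 in the pooled list, 34.7 in replicate 1 and no match in replicate 2. Its other member, at +35 bp and without an E-box, had 64.6, 26.0 and 32.9 in the same lists. The citrate synthase gene cts-1 had 61.1, with 56.9 in replicate 1 and no match in replicate 2, and gpi-1, glucose-6-phosphate isomerase, had 52.7. Fatty acid and lipid genes had 9 of 84 (10.7%), of which 3 carried an E-box, acs-13 with 41.1, the yolk protein gene vit-2 with 38.5 and acdh-8 with 36.3. The respiratory chain had 4 of 52 (7.69%), led by nduf-9, and the mitochondrial ribosome 4 of 70 (5.71%), close to the share of all genes.

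Of the nuclear machinery, RNA polymerases and general factors had 8 of 68 (11.8%), led by rpac-19, a subunit shared by RNA polymerases I and III, with 80.2 in the pooled list, 39.5 in replicate 1 and 41.2 in replicate 2. Splicing genes had 6 of 61 (9.84%), led by lsm-6 with 70.0, and histones 7 of 72 (9.72%), led by his-63 with 64.6. Small RNA machinery had 5 of 33 (15.2%), among them the RNA-dependent RNA polymerases ego-1 and rrf-1 with 51.6 and 44.5. Neither of these peaks had a match in replicate 1. The list called germline RNA regulators, drawn up by gene symbol alone, had 5 of 35 (14.3%). Its puf-9, pgl-3 and nos-1 had 43.0, 39.6 and 39.0, with no match in replicate 2. Cell cycle and DNA replication genes had 5 of 63 (7.94%), and pcn-1, the PCNA sliding clamp, had 48.1.

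Among regulators, the Max network itself had 1 of 5 genes. The gene of MXL-1's partner, mdl-1, had 2 member summits, one at −373 bp with a pooled signal of 45.5, 30.8 in replicate 2 and no match in replicate 1, and one at −150 bp with 39.6 in the pooled list, 21.2 in replicate 1 and 20.9 in replicate 2. The second carried the E-box printed above. No pooled summit that met the position rule lay in the promoter windows of mml-1, mxl-1, mxl-2 or mxl-3. Other basic helix-loop-helix factors had 3 of 32 (9.38%), led by hlh-11 with 69.6. The insulin, TOR and stress list had 5 of 60 (8.33%), with skn-1, the oxidative stress factor, at 61.8 and daf-16, the FOXO factor, at 43.4.

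The lists wholly below 5.56% were those of large gene families. Chemoreceptors had 21 of 1260 (1.67%, 1.03 to 2.54), C-type lectins 2 of 240 (0.833%, 0.101 to 2.98), F-box and BTB proteins 8 of 412 (1.94%, 0.842 to 3.79) and detoxification genes 5 of 215 (2.33%, 0.759 to 5.34), a list that nonetheless holds dhs-8. Homeobox genes had 1 of 86 (1.16%, 0.0294 to 6.31), ceh-54 with 36.7, and major sperm proteins 1 of 44 (2.27%). Nuclear hormone receptors had 10 of 274 (3.65%), led by nhr-1 with 70.9, neuropeptides 4 of 142 (2.82%), led by nlp-12 with 64.4, and synapse genes 6 of 161 (3.73%). Muscle structure genes, at 4 of 31 (12.9%), were led by the actin genes act-4 and act-3 with 57.4 and 54.2. Collagens and cuticle genes had 10 of 232 (4.31%), and their members dpy-11 and dpy-30 entered by symbol, dpy-30 being a subunit of a histone methyltransferase complex. One-carbon and amino acid genes had 3 of 23 (13.0%), led by mel-32 with 44.5.

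**Figure D5:**
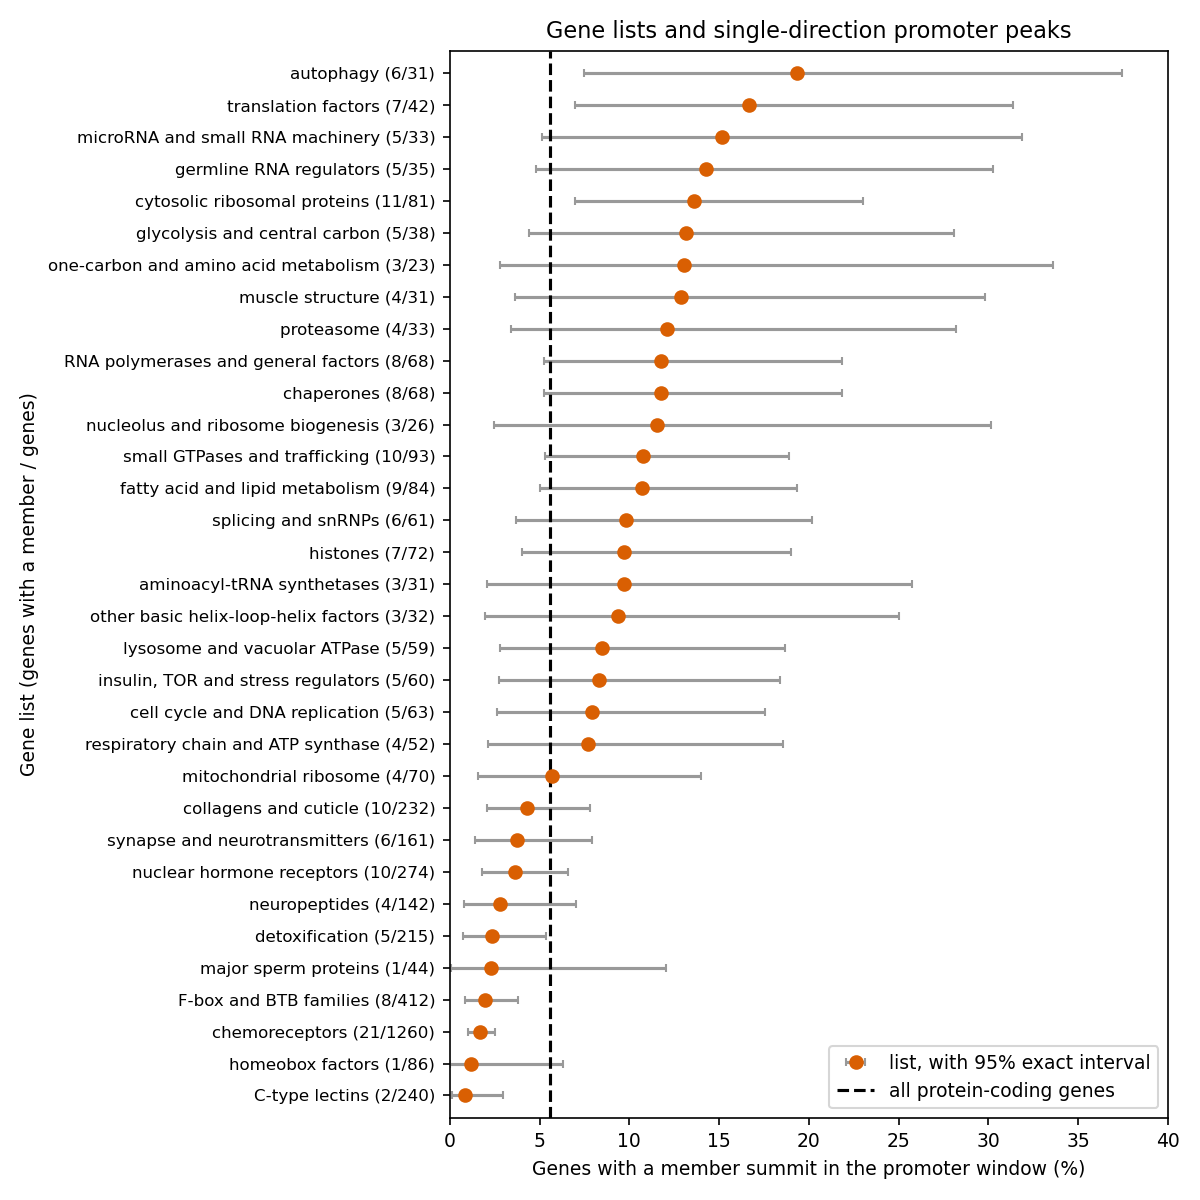
Percent of the genes of each of 33 lists with a member summit in the promoter window (x), with the exact 95% binomial interval, sorted by share (y, with genes counted). The dashed line marks the 5.56% of all 19973 protein-coding genes, and the lists run from autophagy at 19.4% to C-type lectins at 0.833%.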

How the data were processed

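The ChIP-seq of MXL-1-GFP was deposited as peak lists for replicate 1 (20313 peaks), replicate 2 (21882), both pooled (14200) and a thresholded subset (557). The signal per peak and its −log10 q value are the authors' deposited values; for the aligner, the peak caller and the scale of the signal, the sources used here give no name, and depth is unknown. Per the labels, the build was ce11, matched here to WBcel235 (Ensembl release 115 genes, RefSeq sequence). The ce10 lists were not used. The members and lists were chosen with earlier results of these data known. The named genes are the 20 strongest members, the 12 strongest with CACGTG, the Max network and the 3 strongest members of each of 34 lists; the genes with 3 members, epg-9, sqst-1, ife-1, rps-16, rpl-13, atg-7, vit-2, acdh-8 and the CG-rich examples were chosen after their values were seen. Sequence within 100 bp of summits was compared with windows 1000 bp upstream by exact McNemar tests, and with other peaks by Fisher's exact tests. These were two-sided, with threshold 0.05 and Benjamini-Hochberg adjustment. A check beforehand planted short sequences in shuffled upstream windows. Its unplanted run held the same windows on both sides, so it could not measure false calls. Intervals are exact binomial (Clopper-Pearson, 95%) and cover counting only. Alternatives were other windows, limits and each replicate's list alone. Tests ran in scipy 1.17.1 and tables in pandas 2.3.3 under Python 3.11.15, with figures from matplotlib 3.10.9.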

Additional observations from a re-analysis of the deposited data

How the results depend on the processing

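No paired analysis was possible because there was 1 group, so no replicates could be paired between groups. The McNemar tests pair windows of the same peak, not samples. The higher E-box share of members than of their upstream windows passed in 9 of 10 alternatives by the unadjusted exact McNemar p, and in 7 of 10 with adjustment over 16 sequences, which it missed with the 2200 strongest peaks (0.0614), with windows of 500 bp upstream (0.0550) and on replicate 2 (0.309). With 1 replicate's list alone it ranged from 1.22 to 3.04 percentage points, and it did not pass on replicate 2 (exact McNemar p = 0.193). Against weaker peaks, 5 of 9 alternatives passed with that adjustment. The difference was 2.11 points with the 2200 strongest peaks, 1.59 with windows of 500 bp upstream and 1.64 with 2000 bp upstream, none of which passed, and 0.692 to 2.19 with 1 replicate alone. Against divergent peaks it turned to −1.45 on replicate 2 and was 3.26 on replicate 1. For T before the palindrome it turned to −4.10 and −1.75 on the single replicates. The causes were not tested.

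Counts of 6-mers moved most. Against the upstream window, 224 higher and 92 lower became 105 and 49 with 50 bp windows, 107 and 35 with the 2200 strongest peaks, and 133 to 186 and 51 to 76 with 1 replicate. The lower count was also 58 with 250 bp windows, 59 with 500 bp upstream and 144 with 2000 bp. Against weaker peaks, 17 and 14 became 2 and 0 with 50 bp windows, 51 and 24 with the 2200 strongest, 34 and 9 with 500 bp upstream, 94 and 51 with 2000 bp, and 61 to 101 higher and 30 to 56 lower with 1 replicate, and the higher count was 55 with 250 bp windows.

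The 2200 strongest peaks left 532 members at 519 genes, since fewer peaks enter. The median position was −129 bp with the most upstream start of each gene, a distance without a downstream limit. It was −114 and −326.5 bp with the shorter and longer promoter windows, and −275 to −258 bp on single replicates. Matches in both replicates were 38.2% within 50 bp, 79.6% within 250 bp and 19.7% among the 4400 strongest of each. Depth is unknown, and 70 members were in the thresholded list, so single weak members are uncertain.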

Other observations

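Members with CACGTG were set beside the other members on measures that the E-box did not use. Their median signal was 41.8 (n = 84), against 42.3 for the 1090 without it, and their median position was −226 bp against −237 bp. A summit in both replicates was found at 59.5% of those with the E-box and 58.9% of those without. The X chromosome held 19 of the 84 (22.6%) and 162 of the 1090 (14.9%). No test was made of these values.

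Beyond the lists, E-box members included egl-4, the cGMP-dependent protein kinase of body size and olfactory behaviour, with a pooled signal of 36.2, let-92, a catalytic subunit of protein phosphatase 2A, with 42.2, and eri-1, an exonuclease that limits RNA interference, with 52.7. The site was 16.5 bp from the summit at egl-4 on the upstream side, and at let-92 it lay 75.5 bp downstream of it. The egl-4 peak had no match in replicate 1 and the eri-1 peak none in replicate 2. These genes were chosen after their values were seen.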
